A study of Mus musculus with 2 samples.

Results

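The cyclins, the cyclin-dependent kinases with their inhibitors and partners, the CDC genes, the E2F factors, the Aurora, Polo-like and Bub kinases, and the ORC and MCM genes of replication licensing were followed in liver metastases and primary tumours of Colon26 cells. The genes were taken by name: platform symbols, updated to their current form, were kept where the family name is followed by a family letter or number and both arrays have a value. Cyclins were kept from A to L, and CDC, CDK and CDKN genes only where a digit follows the prefix, so the Cdca genes are not members. There were 105 such genes of 13506 named genes measured. Each had 1 probe. A further 3 matching genes, Ccna1, Cdk17 and Cdkn1b, had a value on 1 array only, and cyclins D1 and B1 were not analysed here. Since the choice rests on names, the set also holds genes that share a family name and little else with the cell cycle, such as Cdk5, a kinase best known from neurons.

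Colon26 is a mouse colon carcinoma line that is transplanted into Balb/c mice. Here the cultured cells were placed beneath the rectal mucosa, and total RNA was taken from the liver metastases and from the primary tumours. Each of 2 arrays held 1 liver metastasis labelled with Cy3 and 1 primary tumour labelled with Cy5, and the tumours of the 2 arrays are independent biological replicates per the labels. All values below are log ratios of the 2 channels, taken as log2, and a mean is given with the SD over the 2 arrays (n = 2). The sources used here do not say which channel is the numerator. Values are therefore given as lying on the positive or the negative side, and neither side is assigned to the metastasis or the primary tumour. Both arrays had the same dye orientation, so a probe that favours one dye carries that bias on both arrays. The tissue is a bulk sample, in which fewer cells of a type and less RNA per cell cannot be told apart.

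In a dividing cell, a cyclin binds and activates a cyclin-dependent kinase, and successive pairs drive the steps of the cycle. D-type cyclins with Cdk4 or Cdk6 and E-type cyclins with Cdk2 release E2F transcription factors from the retinoblastoma proteins, and E2F factors then switch on genes for DNA synthesis. Replication origins are licensed when the origin recognition complex (ORC) and Cdc6 load the MCM helicase, and Cdk1 with cyclins A and B, the Aurora and Polo-like kinases and the anaphase-promoting complex carry the cell through mitosis. In bulk tumour RNA, the messengers of many of these genes follow the share of dividing cells.

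The set as a whole lay close to 0. The median of the 105 genes was -0.01, against -0.02 over all 13506 genes, and 37 genes had both values above 0, 46 had both below 0 and 22 had mixed signs or a 0. Over all genes, 33.9% had both values above 0, 38.2% both below and 27.8% neither. The mean ratios of the set ran from -0.61 for E2f2 to 1.27 for Ccnl1, with an SD across genes of 0.387, against 0.478 across all genes. A 95% interval from limma lay inside a 2-fold ratio on either side for 93 of the 105 genes (88.6%), and for 80.7% of all genes. Between the arrays, Pearson's r was 0.74 across the 105 genes and 0.61 across all genes. It was 0.61 across the 98 members left without those at 1.5-fold or more on both arrays. These are descriptions across genes that share the same 2 arrays and the same dye orientation.

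**Figure D1:**
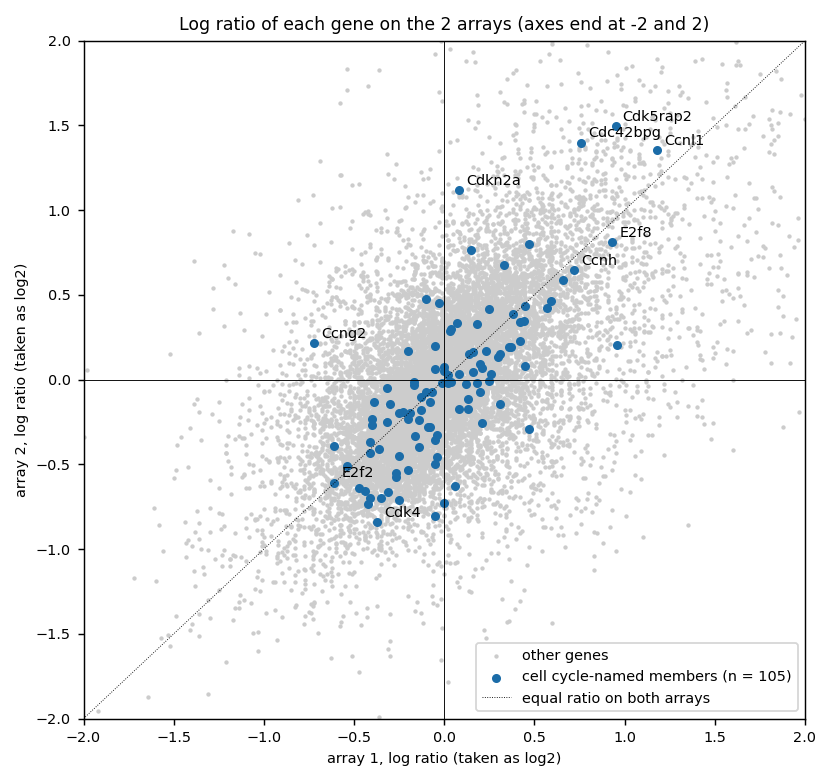
Each point is a gene, with its log ratio (taken as log2) on array 1 on the horizontal axis and on array 2 on the vertical axis; blue points are the 105 cell cycle-named genes and grey points the other genes, of which those beyond the axis ends are not drawn. The blue points cluster around 0, and Ccnl1, Cdk5rap2 and Cdc42bpg have the largest mean ratios on the positive side.

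Of the 105 genes, 2 passed an adjusted p of 0.05 in limma's moderated test over all genes, both on the positive side, and 0 passed on the negative side. That is 1.90% of the set. Over all genes 2.9% passed, 2.12% with positive and 0.777% with negative ratios. At an adjusted p of 0.10 the counts were 6 positive and 1 negative, against 7.17% and 3.75% of all genes. An unadjusted p under 0.05 was met by 27 of the 105 genes (25.7%), 13 positive and 14 negative, against 27.5% of all genes, 15.0% positive and 12.5% negative. None of these shares of the set stood clear of the share over all genes. By size alone, 6 genes with positive ratios and 1 with negative ratios were at least 1.5-fold on both arrays, where the background was 6.04% and 2.84%. At 2-fold the counts were 1 positive and 0 negative, against 1.69% and 0.578% of all genes.

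The called genes were Ccnl1 and Cdk5rap2. Ccnl1 encodes cyclin L1, which works with Cdk11 kinases in pre-mRNA splicing and not as a driver of a cycle phase. Its log ratio was 1.18 on array 1 and 1.35 on array 2, a mean of 1.27 ± 0.12, which is 2.41-fold if the base is 2 (limma adjusted p = 0.0384, 95% interval from 0.87 to 1.66). Cdk5rap2 encodes a protein of the centrosome that anchors the gamma-tubulin complexes from which microtubules grow. It had 0.95 and 1.49, a mean of 1.22 ± 0.39 or 2.33-fold, and its adjusted p in limma of 0.0492 lay just inside the threshold. Both genes were thus on the same side on both arrays, with array 2 the higher in each. Ccnl1 was still called in 5 of 9 alternative fits and Cdk5rap2 in 1 of 9, and neither was called after scaling the arrays to equal spread or after quantile normalization.

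The promoters of these called genes are shown because they carry the clearest ratios of the set. They come from RefSeq's annotation of GRCm38.p6 and run from 250 bases before to 50 bases after the transcription start, 5′ to 3′ on the gene's strand. Capitals mark the letters found in a search of both strands for TTTGGCGC and TTTCGCGC (forms of the E2F site), TTTGAA (the cell cycle homology region of many mitotic genes), CCAAT (the box read by NF-Y) and TATAAA.
Ccnl1, chr3:65958200-65958499, minus strand: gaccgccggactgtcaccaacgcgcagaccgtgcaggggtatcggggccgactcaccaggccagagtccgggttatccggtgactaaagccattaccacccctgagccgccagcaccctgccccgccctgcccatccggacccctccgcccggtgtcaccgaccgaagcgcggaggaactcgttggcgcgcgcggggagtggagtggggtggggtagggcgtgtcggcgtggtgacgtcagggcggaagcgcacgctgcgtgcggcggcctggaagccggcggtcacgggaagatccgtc
Cdk5rap2, chr4:70410386-70410685, minus strand: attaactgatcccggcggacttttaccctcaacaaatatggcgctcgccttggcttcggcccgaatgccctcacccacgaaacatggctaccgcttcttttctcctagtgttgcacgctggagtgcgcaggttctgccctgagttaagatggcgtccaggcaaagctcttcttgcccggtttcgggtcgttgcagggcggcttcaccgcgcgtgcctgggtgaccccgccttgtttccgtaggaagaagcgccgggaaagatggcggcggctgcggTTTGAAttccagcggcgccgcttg
The Ccnl1 window holds none of these letters, though it does hold the shorter core GGCGCG, and G and C make up 71% of it. The Cdk5rap2 window holds TTTGAA once, after the start, and is 60% G and C.

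Other members stood apart without passing the test. Cdc42bpg, a kinase that binds Cdc42 and acts on the actin cytoskeleton, had 0.76 and 1.40 (mean 1.08 ± 0.45, limma adjusted p = 0.0645). E2f8, a repressive E2F factor, had 0.93 and 0.81, a mean of 0.87 ± 0.08 (limma adjusted p = 0.0574). Ccnh, the cyclin of the Cdk7 kinase that activates other cyclin-dependent kinases and phosphorylates RNA polymerase II, had 0.72 and 0.65, and Plk2, a stress-responsive Polo-like kinase, had 0.66 and 0.59. These genes, with Ccnl1 and Cdk5rap2, make up the 6 at or beyond 1.5-fold on the positive side of both arrays. The 1 gene at that size on the negative side was E2f2, an activating E2F factor, with -0.61 on each array (limma adjusted p = 0.0937). Centring each array on its median was enough to bring E2f2 under 1.5-fold.

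Among the cyclins that pace the cycle, 7 were measured and none passed limma's test. An unadjusted p under 0.05 was met by 0 of them, against 27.5% of all genes. Of the D-type cyclins, which relay growth signals, Ccnd2 had -0.40 and -0.23 and Ccnd3 -0.10 and -0.07. The E-type cyclins, which start DNA synthesis, differed in sign: Ccne2 had 0.42 and 0.23 on arrays 1 and 2, whereas Ccne1 had 0.00 and -0.73. Ccne1 thus lay at 0 on one array and was the lowest of these cyclins on the other, so its mean of -0.36 ± 0.52 has a limma interval from -0.93 to 0.20. Ccna2, cyclin A of S phase and early mitosis, had -0.14 and -0.40, and Ccnb2, a mitotic B-type cyclin, -0.17 and -0.01. Ccnb3, a B-type cyclin best known from meiosis, had 0.16 on each array. Of these cyclins, 4 had both values below 0, 2 both above and 1 neither.

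The other cyclins serve transcription or have less defined roles. Limma called Ccnl1 alone of these 9, and 3 (33.3%) had an unadjusted p under 0.05. Over all genes, 2.9% were called and 27.5% met the unadjusted level. Ccnl2, the closest relative of Ccnl1, had -0.05 and 0.07, and Ccnk, the partner of Cdk12 and Cdk13, had 0.04 and -0.01. Ccnc, the cyclin of the Mediator kinase, had 0.00 and 0.08. The sister genes Ccng1 and Ccng2, both p53-linked or stress-linked cyclins, had 0.03 and 0.29, and -0.72 and 0.21. Ccng2 showed the widest gap of any member whose sign changed between the arrays. Ccni and Ccnj lay on the negative side at -0.42 ± 0.21 and -0.29 ± 0.05, and neither passed.

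Cell cycle kinases were measured for 5 genes, and limma called 0 (1 at an unadjusted p under 0.05). Cdk4, the partner of D-type cyclins, had -0.37 and -0.84, a mean of -0.61 ± 0.33 (limma adjusted p = 0.126), and Cdk6, which shares that role, had -0.07 and -0.08. Cdk2 had 0.30 and 0.14 and Cdk1, the mitotic kinase, 0.21 and 0.07. Cdk1 and Cdk2 were therefore on the opposite side from Cdk4 on both arrays. Their limma intervals, from -0.25 to 0.53 for Cdk1 and from -0.18 to 0.61 for Cdk2, held 0 and lay inside a 2-fold ratio. Such intervals draw on the variance of all genes and do not cover a dye bias shared by both arrays. Cdk3 had -0.04 and -0.45. All 5 kinases had a lower value on array 2 than on array 1, against 51.9% of all genes.

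Of the remaining cyclin-dependent kinases, 10 of 13 had both values below 0, against 38.2% of all genes, and 3 both above, against 33.9%. Their median was -0.18, and limma called 0. An unadjusted p under 0.05 was met by 3, or 23.1%, against 27.5% of all genes. The side of this list was not tested. Cdk9, which releases paused RNA polymerase II, had -0.42 and -0.73 (mean -0.58 ± 0.22, limma adjusted p = 0.117). Cdk11b, the kinase paired with L-type cyclins, had -0.41 and -0.37, on the other side from Ccnl1. Cdk5 had -0.27 and -0.55. On the positive side, Cdk18, a kinase of the PCTAIRE group, had 0.33 and 0.67, and Cdk10 had 0.45 and 0.08. The transcription kinases Cdk8, Cdk12, Cdk13 and Cdk19 had means between -0.18 and 0.02, and Cdk14, Cdk15, Cdk16 and Cdk20, none of them a kinase of a defined cycle phase, had means between -0.26 and -0.10. Centring moved Cdk19, at -0.01, to the positive side.

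**Figure D2:**
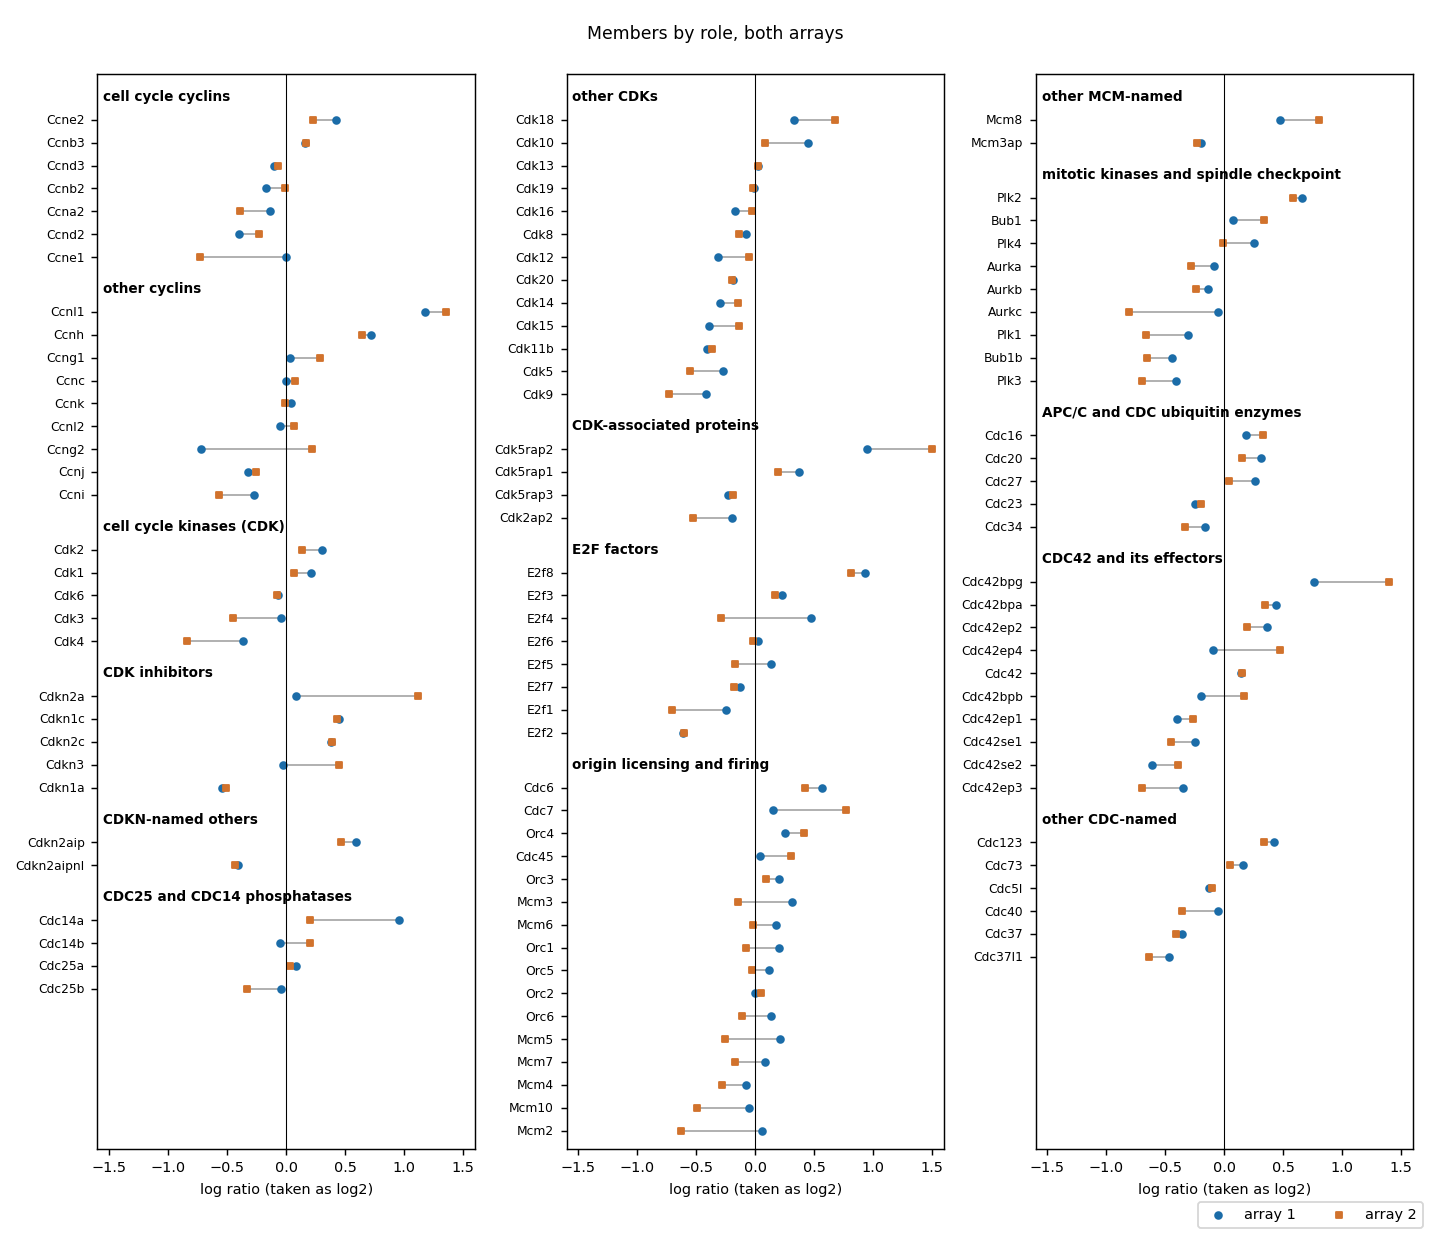
Each row is 1 of the 105 genes, grouped by role, with its log ratio (taken as log2) on array 1 as a blue circle and on array 2 as an orange square, joined by a line. Most genes lie near 0 on both arrays, Ccnl1, Cdk5rap2, E2f8 and Cdc42bpg stand out to the right, and the orange squares of the MCM genes lie to the left of the blue circles except in Mcm8.

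Inhibitors of the cyclin-dependent kinases did not share a side. Cdkn1a, the p53-induced inhibitor p21, had -0.54 and -0.51 (mean -0.53 ± 0.02, limma adjusted p = 0.116). Cdkn1c, the inhibitor p57, was opposite at 0.45 and 0.43, as was Cdkn2c, the Cdk4 and Cdk6 inhibitor p18, at 0.38 and 0.39. These 3 genes repeated closely between arrays, but limma called 0 of the 5 inhibitors measured. An unadjusted p under 0.05 was met by 2 of the 5, against 27.5% of all genes. Cdkn2a, the locus of the Ink4a and Arf tumour suppressors, had 0.08 on array 1 and 1.12 on array 2, so its mean of 0.60 ± 0.74 rests on array 2. Cdkn3, a phosphatase that acts on Cdk2, had -0.03 and 0.45. Cdkn1b, the inhibitor p27, had a value on array 1 only, 1.74, and Ccna1 and Cdk17 on array 2 only, 1.83 and 0.53. With no second array, these 3 values have no replicate.

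Proteins named for these kinases or inhibitors were also divided. Apart from Cdk5rap2, Cdk5rap1, an enzyme that modifies mitochondrial tRNA, had 0.37 and 0.19, while Cdk5rap3 had -0.23 and -0.19 and Cdk2ap2 -0.20 and -0.53. Cdkn2aip, which binds Arf, had 0.59 and 0.47 (mean 0.53 ± 0.09, limma adjusted p = 0.118). Its relative Cdkn2aipnl had -0.41 and -0.43. Of the phosphatases, Cdc25a and Cdc25b, which remove the inhibitory phosphates from cyclin-dependent kinases, had 0.08 and 0.03, and -0.04 and -0.33. Cdc14a had 0.96 and 0.20 and Cdc14b -0.05 and 0.20, so Cdc14a was far from 0 on array 1 only.

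The means of the 8 E2F factors ran from -0.61 for E2f2 to 0.87 for E2f8. The activators were E2f1 at -0.25 and -0.71, E2f2 at -0.61 on each array and E2f3 at 0.23 and 0.17. E2f1 and E2f2 were thus negative on both arrays and E2f3 positive on both. Among the factors that mostly repress, E2f4 changed sign, with 0.47 and -0.29, E2f5 had 0.13 and -0.18, and E2f6 had 0.02 and -0.02. The atypical repressors E2f7 and E2f8 lay apart, at -0.13 and -0.18 for E2f7 and at 0.93 and 0.81 for E2f8. Limma called 0 of the 8. An unadjusted p under 0.05 was met by 3 (E2f1, E2f2 and E2f8), against 27.5% of all genes. Of the 8, 7 had a lower value on array 2 than on array 1, against 51.9% of all genes. The signs of the means of E2f5 and E2f6 flip after centring, and that of E2f6 also after scaling and quantile normalization.

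The genes of origin licensing and firing lay near 0, with a median absolute ratio of 0.11 against 0.27 over all genes. All 16 genes were measured, with a median of 0.06 and a range from -0.28 for Mcm2 to 0.50 for Cdc6. Limma called 0, and 1 had an unadjusted p under 0.05, against 27.5% of all genes. Of the 16, 5 had both values above 0, 2 both below and 9 neither. The ORC subunits mark the origins. On array 1 they had 0.20 for Orc1, 0.00 for Orc2, 0.20 for Orc3, 0.25 for Orc4, 0.12 for Orc5 and 0.13 for Orc6. On array 2 the values were -0.07, 0.05, 0.09, 0.42, -0.02 and -0.11 in the same order, so only Orc3 and Orc4 were above 0 on both. Cdc6, which helps ORC load the helicase, had 0.57 and 0.42 (mean 0.50 ± 0.10, limma adjusted p = 0.130). Cdc7, the kinase that fires licensed origins, had 0.15 and 0.77, and Cdc45, a part of the active helicase, 0.04 and 0.30. Mcm10, needed for the start of synthesis, had -0.05 and -0.50.

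The 6 subunits of the MCM helicase kept no common side. On array 1 they had 0.06 for Mcm2, 0.31 for Mcm3, -0.08 for Mcm4, 0.21 for Mcm5, 0.18 for Mcm6 and 0.08 for Mcm7. On array 2 the same genes had -0.63, -0.14, -0.28, -0.25, -0.02 and -0.17. Array 2 was lower for 6 of 6, with a median difference (array 2 minus array 1) of -0.35, against -0.02 over all genes, and 5 of the 6 changed sign, all but Mcm4. Their means lay between -0.28 and 0.08 and no limma interval excluded 0. Of the 16 licensing and firing genes, 12 were lower on array 2, against 51.9% of all genes and 65 of the 105 members. The counts of 6 of 6 and 12 of 16 were the same after centring, scaling and quantile normalization. This pattern was noticed in the values and was not tested. Mcm8, a helicase of recombination repair that is no subunit of that complex, had 0.47 and 0.80, and Mcm3ap, an RNA export factor, -0.20 and -0.23.

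**Figure D3:**
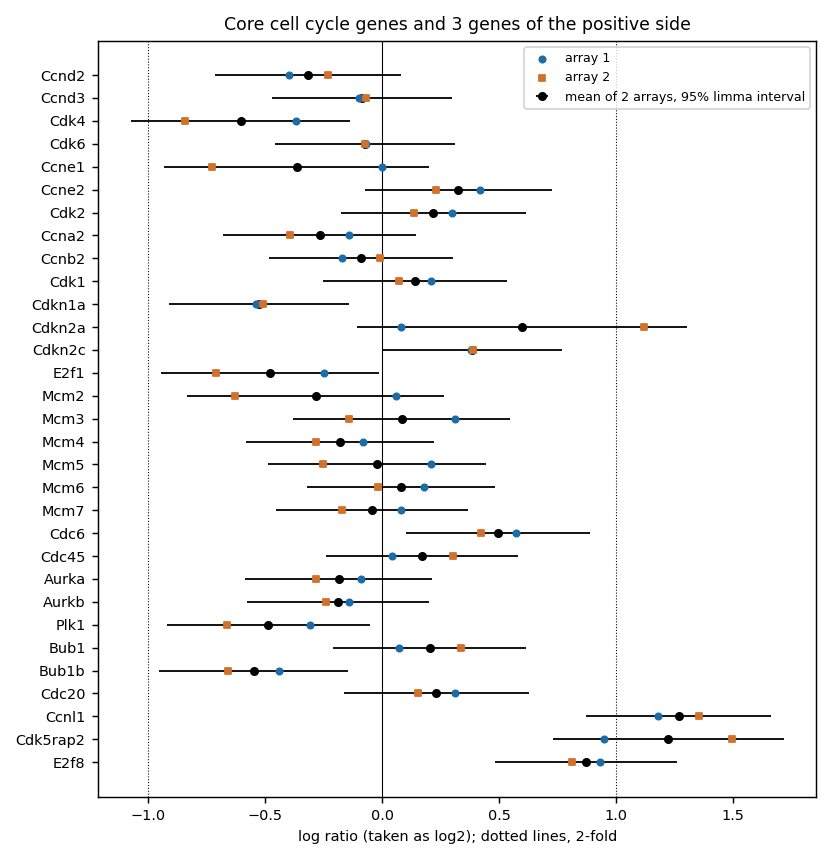
Log ratios (taken as log2) of core cell cycle genes and of Ccnl1, Cdk5rap2 and E2f8, with array 1 as blue circles, array 2 as orange squares, and the mean with its 95% limma interval in black; dotted lines mark a 2-fold ratio. The intervals of the MCM genes cross 0, while those of Ccnl1, Cdk5rap2 and E2f8 do not.

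Of the mitotic kinases and spindle checkpoint genes, 9 were measured. Both values were below 0 in 6, both above in 2 and neither in 1, with a median of -0.19. Over all genes, 38.2% had both below 0 and 33.9% both above. Limma called 0, and 4 of the 9 (44.4%) had an unadjusted p under 0.05, against 27.5% of all genes. The side of this small list was not tested. Plk1, the main Polo-like kinase of mitosis, had -0.31 and -0.66 (mean -0.49 ± 0.25, limma adjusted p = 0.154). Bub1b, the checkpoint protein BubR1, had -0.44 and -0.66, a mean of -0.55 ± 0.15 (limma adjusted p = 0.117). Bub1, its partner kinase, was on the other side at 0.07 and 0.34. The Aurora kinases, which act on centrosomes and chromosomes, had -0.09 and -0.28 for Aurka, -0.14 and -0.24 for Aurkb and -0.05 and -0.81 for Aurkc, a kinase best known from germ cells. Plk3, a stress kinase, had -0.41 and -0.70, opposite to Plk2, and Plk4, which controls centriole copying, had 0.25 and -0.01.

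Among the CDC genes, 4 encode parts of the anaphase-promoting complex, the ubiquitin ligase that ends mitosis, and Cdc34 works with other ligases. Cdc20, the mitotic activator of the complex, had 0.31 and 0.15. The subunits Cdc16, Cdc23 and Cdc27 had means of 0.25 ± 0.10, -0.22 ± 0.04 and 0.15 ± 0.16, and Cdc34, a ubiquitin-conjugating enzyme of the SCF ligases, had -0.25 ± 0.12. Limma called 0 of the 5, with 0 at an unadjusted p under 0.05, against 27.5% of all genes.

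The CDC genes outside the cycle were measured for 16 members. Cdc42 itself had 0.14 and 0.15. Of its kinases Cdc42bpa had 0.44 and 0.34 and Cdc42bpb -0.20 and 0.17, next to the high Cdc42bpg. Of its effectors Cdc42ep2 had 0.36 and 0.19, Cdc42ep4 -0.10 and 0.48, Cdc42ep1 -0.40 and -0.26 and Cdc42ep3 -0.35 and -0.70. The small binding protein Cdc42se2 had -0.61 and -0.39 (limma adjusted p = 0.133), and Cdc42se1 had -0.25 and -0.45. The Hsp90 cochaperone Cdc37, which stabilises kinases including Cdk4, had -0.36 and -0.41, and its relative Cdc37l1 -0.47 and -0.64 (limma adjusted p = 0.113 for Cdc37l1). The splicing factors Cdc5l and Cdc40 had -0.12 ± 0.02 and -0.20 ± 0.22, Cdc73 of the PAF1 transcription complex 0.10 ± 0.08 and Cdc123, an assembly factor for translation initiation, 0.38 ± 0.06. Limma called 0 of the 10 genes named for Cdc42 and 0 of the other 6, where 2.9% of all genes were called. An unadjusted p under 0.05 was met by 4 of the 10 and 1 of the 6, against 27.5% of all genes.

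Other cell cycle genes that the name rule does not hold were read in 5 lists of 105 genes, of which 98 were measured. Limma called 0 of the 98 on either side, against 2.9% of all genes, and 21 had an unadjusted p under 0.05. Over all genes, 27.5% met that level, 33.9% had both values above 0 and 38.2% both below. Replication fork genes had both values above 0 in 14 of 27, both below in 3, and a median of 0.12. Pcna, the sliding clamp of DNA polymerases, had 0.29 and 0.07, Prim2, a primase subunit, 0.76 and 1.06 (limma adjusted p = 0.0593), and Pole2 0.48 and 0.68. Top2a, the topoisomerase of dividing cells, was negative at -0.31 and -0.35, as was Pold2 at -0.31 and -0.25. Array 2 was lower for 20 of the 27 fork genes and for 8 of 9 genes of nucleotide supply, against 51.9% of all genes. The fork count was 19 after scaling and 18 after quantile normalization, while the nucleotide count stayed at 8. This gap was not tested. Among the nucleotide genes, with a median of 0.12, Dck had 0.53 and 0.75, Rrm1 0.14 and 0.13, Tyms, thymidylate synthase, 0.06 and -0.20 and Paics -0.12 and -0.20.

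Markers of mitosis and proliferation were spread to both sides, with both values above 0 in 14 of 26, both below in 9 and a median of 0.10. Over all genes, 33.9% had both above and 38.2% both below, and the side of this list was not tested. Mki67, which encodes the proliferation antigen Ki-67, had 0.00 and 0.66, a mean of 0.33 ± 0.46 with an adjusted p in limma of 0.350. The kinetochore genes Cenpe and Nuf2 had 0.87 and 1.45, and 0.98 and 0.80. Opposite to them lay Anln, the scaffold anillin of cell division, at -0.78 and -0.96, and Cenpa, the centromeric histone, at -0.52 and -0.58. Here 9 of 26 genes (34.6%) had an unadjusted p under 0.05, against 27.5% of all genes. The adjusted p of Cenpe, Nuf2 and Anln in limma were 0.0554, 0.0574 and 0.0587.

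In the list of checkpoint, RB and p53 genes, 5 of 19 had both values above 0 and 6 both below. Chek2, a kinase of the DNA damage response, had 1.12 and 0.85 (mean 0.99 ± 0.19, limma adjusted p = 0.0522), and Lin9, of the DREAM and MuvB complexes, 0.62 and 0.81. Rb1 had 0.12 and 0.47, and its relative Rbl2, or p130, had -0.66 and -0.86. Atr, another damage kinase, had -0.43 and -0.59. The ubiquitin ligase list had both values below 0 in 10 of 17, both above in 4, and a median of -0.12. For this list and the checkpoint list, the shares over all genes were 38.2% both below and 33.9% both above. The sides of these 2 lists were not tested. Cks1b, a small partner of cyclin-dependent kinases and of Skp2, had -0.54 and -0.87, and Fzr1, the activator Cdh1, -0.22 and -0.46. Anapc7 and Anapc10 were positive at 0.52 ± 0.17 and 0.41 ± 0.17.

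**Figure D4:**
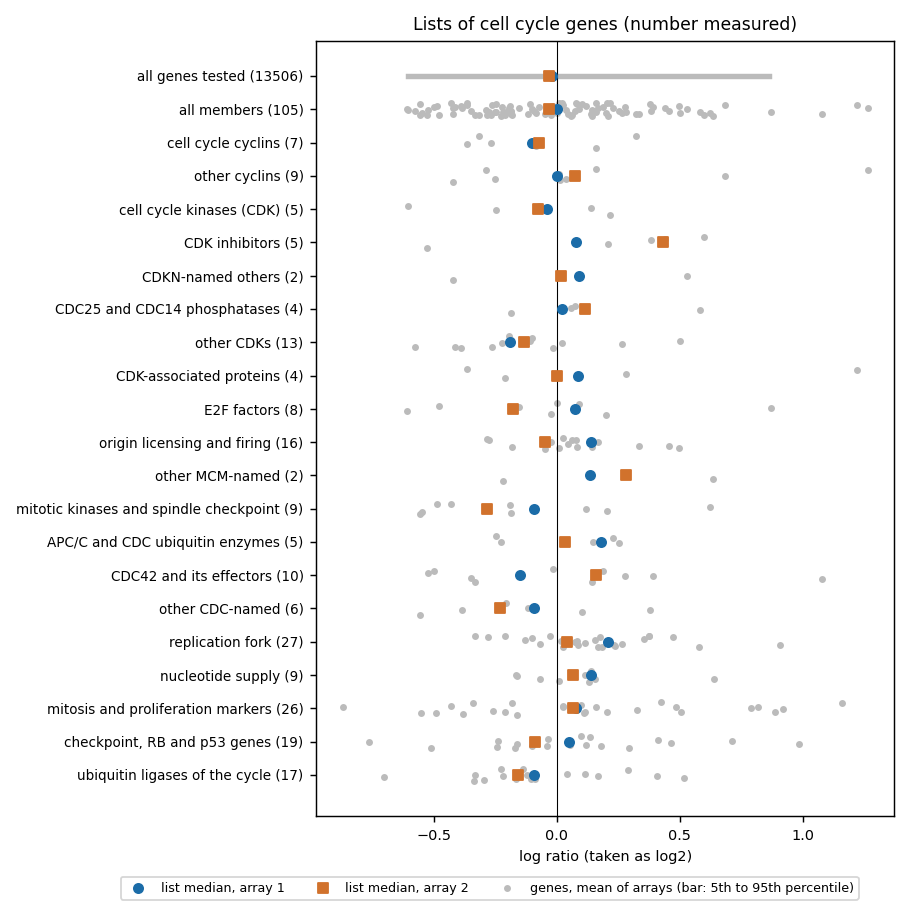
Medians of each list on array 1 (blue circles) and array 2 (orange squares) as log ratios taken as log2, over the mean ratios of its genes (grey points); the grey bar of all genes tested runs from the 5th to the 95th percentile, -0.60 to 0.86. The list medians lie between -0.28 and 0.28 on both arrays except for the CDK inhibitors on array 2, at 0.43.

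Markers of other cells that a bulk tumour can hold had larger ratios than the cell cycle lists in some cases. Of 49 measured markers limma called 6, where 2.9% of all genes were called. Over all genes, 33.9% had both values above 0, 38.2% both below and 27.5% an unadjusted p under 0.05. The sides of these small lists were not tested. The limma adjusted p was 0.0184 for Col1a1 and between 0.0438 and 0.0492 for the others called, close to the threshold. These calls were not followed through the alternative fits. Endothelial genes had both values above 0 in 6 of 6 with a median of 0.59, and Flt1 (1.25 ± 0.36) and Robo4 (1.04 ± 0.21) were called. Muscle genes had a median of 0.63 and both values above 0 in 5 of 7. Cnn1 and Actn3 were called at 1.15 ± 0.24 and 1.27 ± 0.28, while Actg2, at -0.65 ± 0.01, was not called. Fibroblast genes had a median of -0.34, and Col1a1 alone was called, at -2.93 ± 0.18. The other collagens and fibroblast genes measured did not share that size. Their means ran from -0.45 to 0.61, the highest being Fbn1 at 0.61 ± 0.03. Macrophage genes had a median of -0.20. Cd14 was called at -1.20 ± 0.33, while Fcgr1, at 1.12 ± 0.52, was not called. Hepatocyte genes had a median of -0.00, both values above 0 in 2 of 11 and both below in 4 (Ttr 0.80 ± 0.06, Fah -0.95 ± 0.50). Medians were 0.06 for T cell genes (Cd2 0.99 ± 0.24, Cd247 -0.33 ± 0.24) and -0.36 for colonic epithelium (Krt20 0.49 ± 0.25, Lgals4 -0.36 ± 0.05). Limma called 0 in the hepatocyte, T cell and colonic lists. An unadjusted p under 0.05 was met there by 4 of 11, 2 of 6 and 2 of 7 genes. The table holds ratios and no levels, so whether a marker is expressed at all cannot be read from it. The part of these cells in the ratios of Ccnl1, Cdk5rap2 and the other members was not tested.

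The promoters of the set were set beside its ratios, because E2F sites are a known feature of replication genes that the name rule did not use. RefSeq's promoter table held 91 of the 105 genes. An 8-letter E2F form, TTTGGCGC or TTTCGCGC on either strand, was present in 9 of the 91 (9.89%), against 0.929% of all 27025 genes in the table. All 9 also held CCAAT, which was present in 51 of the 91 genes and in 41.1% of all genes. TTTGAA was present in 24.2% of the set and 20.2% of all genes, and TATAAA in 5.49% and 15.7%. G and C made up a median of 61.2% of the set's promoters and 52.7% of all promoters, and a shorter E2F core is common in such sequence: GGCGCG or CGCGCC, which can overlap the 8-letter form, was found in 48 of the 91 genes and in 21.2% of all genes.

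The E2F sites of these genes are shown with up to 10 bases on each side, 5′ to 3′ on the gene's strand, in GRCm38.p6. Capitals mark 1 match per site, which reads on the gene's own strand in 7 genes and on the opposite strand in Mcm8 and Orc1. Further matches on the opposite strand overlap the marked ones and are not capitalised in full. These are GCGCCAAA in Mcm5 and GCGCGAAA in the Mcm6 site at chr1:128359798-128359825.
Cdc25a, chr9:109875502-109875529, plus strand: gtgaattccgTTTGGCGCcaactaggaa
Cdk1, chr10:69353026-69353053, minus strand: ttccgctcccTTTCGCGCtctgcgctcc
E2f2, chr4:136172303-136172323, plus strand: cggcatatagTTTGGCGCtaa
Mcm3, chr1:20820263-20820284, minus strand: cttgggaagtTTTGGCGCcaag
Mcm5, chr8:75109346-75109373, plus strand: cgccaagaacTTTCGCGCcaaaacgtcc
Mcm6, chr1:128359735-128359762, minus strand: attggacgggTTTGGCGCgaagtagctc
Mcm6, chr1:128359798-128359825, minus strand: ggcgtatgctTTTGGCGCgaaaagtgcg
Mcm7, chr5:138171850-138171877, minus strand: ggtgacgacgTTTCGCGCcaatttcggt
Mcm8, chr2:132816170-132816190, plus strand: cgtcatagacGCGCCAAAaaa
Orc1, chr4:108579417-108579444, plus strand: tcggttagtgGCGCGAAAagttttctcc
Of the 9 genes, 5 belong to the licensing and firing list, and Mcm6 has more than 1 site apart from overlapping matches. Their mean ratios had a median of 0.06, against -0.01 for the other members with a promoter, and ran from -0.61 for E2f2 to 0.64 for Mcm8. For the shorter E2F core the order was the reverse, with medians of -0.03 for members that hold it and 0.01 for the others. Neither difference was tested. Limma called 0 of the 9, with 2 at an unadjusted p under 0.05, against 27.5% of all genes. The Mcm genes with these sites, Mcm3, Mcm5, Mcm6 and Mcm7, lay between -0.05 and 0.08. A match describes the letters in these windows and does not show that a factor binds there.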

How the data were processed

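The authors deposited a table with 1 value per probe and array, a log ratio of the 2 channels of a 2-colour array, taken here as log2. The sources used here give neither its log base and numerator nor any background correction or normalization. The medians of all deposited values were 0 on array 1 and -5.53e-06 on array 2. The deposited table holds no intensities and hence no levels, and with 2 arrays precision is low. A value on both arrays was present for 18837 of 23473 probes. The platform annotation named 16631 probes with 1 symbol and 6842 with none, and 12622 of the names were current in RefSeq (GRCm38.p6), 3947 were replaced by the current symbol of the 1 gene that lists them as a synonym, and 62 stayed as given. Among the 105 genes, 20 carry an updated name (Cdc2a is now Cdk1). Probes were averaged per gene.

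Each ratio was tested against 0 over all 13506 genes with limma 3.58.1 in R 4.3.3 (intercept fit, eBayes, Benjamini-Hochberg adjustment, threshold 0.05), with 1 residual degree of freedom and a prior of 4.06. The replicates are 2 independent pairs of tumour and metastasis per the labels, and turning signs over 2 arrays cannot give a two-sided p below 0.5. Alternatives were array centring, scaling, quantile normalization, other gene summaries, other forms of the test and other thresholds. On simulated ratios for 13506 independent genes, the test called 22% of genes set to a log2 change of 1 and 96% of those set to 2. It called 96% at 3 and 100% at 4, with 18 false calls among 175, a larger share than the threshold of 0.05. The simulated ratios held no dye bias shared by both arrays, so these figures do not cover that limit of the data. No list was given a test: lists are described by counts and medians beside all genes. The members and lists were chosen with earlier results of these data known. Values on both arrays are given for called members, for the 10 per side with the largest value on the weaker array, for a fixed set of core genes, and for the 5 mixed-sign genes with the widest gap; other members are given where their role is described. Of the other cell cycle lists, the named genes are fixed ones and the 2 per side largest on the weaker array, and of the marker lists called genes and 1 per side. The E2F sites printed were chosen after the values were seen. Figures were drawn with matplotlib 3.10.9.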

Additional observations from a re-analysis of the deposited data

How the results depend on the processing

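With 2 arrays of one dye orientation, dye bias could not be separated from the ratio. The 2 calls among the members, both positive, became 1 after centring each array, in the fit on probes, with platform symbols as given and with robust eBayes. They became 0 after scaling to equal median absolute value, after quantile normalization, without moderation and with a minimum fold of 1.2. They became 6 with genes on at least 1 array included, some of which rest on 1 array, and 6 at an adjusted p of 0.10, where 1 negative call was added. Over all genes the 391 calls became 51 after scaling, 4 after quantile normalization, 238 in the fit on probes, 108 with a minimum fold, 0 without moderation (limma's moderated test had 3717 genes at an unadjusted p under 0.05), 1041 with genes on at least 1 array and 1476 at 0.10. Over these fits the adjusted p of Ccnl1 in limma ran from 0.0377 to 0.463 and that of Cdk5rap2 from 0.0394 to 0.488. The other cell cycle lists had 0 calls, but 5 positive and 1 negative with genes on at least 1 array, and 9 positive and 3 negative at 0.10. The positive 1.5-fold count of 6 became 14 at 1.2-fold and 1 at 2-fold, and the negative count of 1 became 16 and 0. That negative count was also 0 after centring, scaling or quantile normalization. With 1 array left out there is no test, and the positive 1.5-fold count was 8 to 10 and the negative one 3 to 12. The median of the members, -0.01, was 0.011 after centring. With the 6-letter E2F core, 48 members in place of 9 held a match. Of the 10 members per side with the largest values on the weaker array, none changed sign under these alternatives. That follows from how they were picked, by the same sign and large values on both arrays. Leaving out 1 array could not change their sign. The medians removed by centring, -0.02 on array 1 and -0.03 on array 2, were nearer 0 than any of their values. No paired analysis was possible because the ratios form 1 group, with no second group to share replicate numbers. Each ratio already sets a metastasis against a primary tumour on 1 array.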
